A study of Homo sapiens with 33 samples.

Results

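Expression of 6 organic cation transporter genes was examined in 11 high-grade serous ovarian carcinoma cell lines: SLC22A2 (OCT2), SLC22A3 (OCT3), SLC22A4 (OCTN1), SLC22A5 (OCTN2), SLC47A1 (MATE1) and SLC47A2 (MATE2). The genes were taken by symbol from the 29744 genes of the deposited tables, and all 6 were listed there. The study set platinum-sensitive lines beside resistant lines of the same origin, with 3 libraries of mRNA sequencing per line and 33 in all. OVCAR3 and OVCAR4 were the sensitive parents of OVCAR3 ResA, OVCAR3 ResB, OVCAR4 ResA and OVCAR4 ResB, 4 lines that the study selected independently with pulses of cisplatin and did not keep in the drug. PEA1 and PEO1 were the sensitive members of clinical series in which PEA2, PEO4 and PEO6 are the resistant lines established from the same patients. Each line stands for its own culture history and no library was sequenced under treatment. The labels do not say whether the 3 replicates of a line were separate cultures, so p-values measure the spread between libraries, which may be technical.

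Organic cation transporters of the SLC22 family carry positively charged small molecules across the plasma membrane along their electrochemical gradient. OCT2 is known as the basolateral uptake carrier of kidney tubule cells and takes up cisplatin there, and OCT3 is a widely distributed, low-affinity carrier of monoamines such as histamine, noradrenaline and serotonin. OCTN2 is the sodium-coupled high-affinity carrier of carnitine, which cells need to bring long-chain fatty acids into mitochondria, while OCTN1 carries ergothioneine. The MATE proteins exchange protons for organic cations and export them from kidney and liver cells. Together, SLC22A2 and SLC47A1 form a route through the tubule cell.

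The members lie in 3 adjacent pairs, given here by the RefSeq annotation of GRCh38.p14. SLC22A2 (chr6:160216755-160258821) and SLC22A3 (chr6:160348378-160452577) are 89.6 kb apart on chromosome 6. SLC22A4 (chr5:132294394-132344190) and SLC22A5 (chr5:132369710-132395612) are 25.5 kb apart on chromosome 5. SLC47A1 (chr17:19533854-19579034) and SLC47A2 (chr17:19678317-19718979) are 99.3 kb apart on chromosome 17. The long non-coding gene MIR3936HG (chr5:132311276-132369916) overlaps SLC22A4 and the start of SLC22A5. The sources used here do not state the strand setting of the counting, so reads of overlapping genes could not be told apart.

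The 250 bases before the annotated start are shown for SLC22A2, SLC22A4 and SLC22A5, because these were the 3 members whose transcripts rose in OVCAR4 ResB. Capitals mark a GC box (GGGCGG or its reverse complement CCGCCC, either strand) or an E-box (CACGTG, its own reverse complement), and the TATAAA motif was searched on both strands and was in none of the 3 windows.
SLC22A2, chr6:160258822-160259071, minus strand: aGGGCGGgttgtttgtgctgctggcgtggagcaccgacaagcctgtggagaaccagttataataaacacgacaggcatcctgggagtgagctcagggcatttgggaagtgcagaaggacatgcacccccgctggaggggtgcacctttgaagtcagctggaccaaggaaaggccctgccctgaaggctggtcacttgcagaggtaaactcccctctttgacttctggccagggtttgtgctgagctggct
SLC22A4, chr5:132294144-132294393, plus strand: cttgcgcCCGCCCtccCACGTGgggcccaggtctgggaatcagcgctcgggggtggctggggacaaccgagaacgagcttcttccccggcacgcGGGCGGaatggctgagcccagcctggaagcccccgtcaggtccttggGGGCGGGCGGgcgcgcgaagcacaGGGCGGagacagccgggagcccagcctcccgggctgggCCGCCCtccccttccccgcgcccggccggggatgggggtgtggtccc
SLC22A5, chr5:132369460-132369709, plus strand: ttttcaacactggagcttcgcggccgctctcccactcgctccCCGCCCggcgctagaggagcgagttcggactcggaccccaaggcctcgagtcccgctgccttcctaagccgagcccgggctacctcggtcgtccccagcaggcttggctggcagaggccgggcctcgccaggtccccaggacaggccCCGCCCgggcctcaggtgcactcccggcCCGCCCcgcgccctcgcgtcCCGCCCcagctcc
The SLC22A4 window held 6 GC boxes, a pair of which overlap, with 1 E-box and 25 CpG dinucleotides. The SLC22A5 window held 4 GC boxes and 27 CpG, and it lies inside MIR3936HG. The SLC22A2 window held 1 GC box and 5 CpG, against a median of 11 CpG over 35116 RefSeq windows of the same length. At least as many CpG were counted in 17.7% of those windows as before SLC22A5, in 21.6% as before SLC22A4 and in 65.7% as before SLC22A2. Of all windows, 42.6% held a GC box, 6.34% an E-box and 10.7% the TATAAA motif.

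The libraries held 18058985 to 43394009 estimated counts. At these depths a count of 0 allows up to 3 counts, or 0.0691 to 0.166 CPM (counts scaled to a common library size), and such limits cover counting error only. Of 10 ovarian carcinoma markers, 8 to 10 were at 1 TPM (a level per unit of transcript length, scaled to a common sum in each library) or more in each line. Of 10 markers of other cell types, 1 to 3 were at 1 TPM or more in each line, and their summed level ran from 3.20 TPM in PEO1 to 91.8 TPM in PEA1. The fibroblast and smooth muscle markers COL1A1 and ACTA2 reached 88.4 TPM in PEA1 and 32.7 TPM in PEO6, LUM reached 17.7 TPM in OVCAR4 ResA, and LRP2, a proximal tubule marker, reached 5.06 TPM in OVCAR3. PECAM1, an endothelial marker, reached 6.76 TPM in OVCAR3 ResB, and PTPRC, a leukocyte marker, reached 3.3 TPM in PEA2. CD3E, VWF, DCN and ALB stayed below 1 TPM in every line. Between PEA1 and PEA2 both marker lists moved: the summed carcinoma markers were at 444 TPM in PEA1 and 3780 TPM in PEA2, with KRT7 391-fold, CDH1 225-fold and EPCAM 44.6-fold higher in PEA2, while COL1A1 was 90.3-fold lower. Replicate 1 of OVCAR4 ResA stood apart: 78 genes with at least 300 counts in every PEO1 library had at most 5 counts in the 8 other libraries of the OVCAR4 family, and in this library all 78 were above 1% of their PEO1 level, with a median of 4.65%. These genes were chosen after their values were seen. The medians in the 8 other libraries were 0%, but the limit of 5 counts held them near that level, so they are no separate evidence.

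SLC22A5, the carnitine carrier, was the main transcript of the group in 9 of the lines. It was present in every library, and its line means ran from 3.67 TPM in OVCAR3 to 25.2 TPM in OVCAR4 ResB. It made up 71.2% to 95.8% of the summed TPM of the 6 genes in all lines except PEO1, where the share was 4.20%, and PEA1, where it was 29.0%. PEO1 was instead dominated by SLC22A3, at 94.7%, and PEA1 by SLC22A4, at 39.8%, with SLC47A1 at 15.9% and SLC47A2 at 12.6%. SLC22A2 stayed at or below 0.616 TPM in the mean of every line and had 3 counts or fewer in 21 of the 33 libraries.

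**Figure D1:**
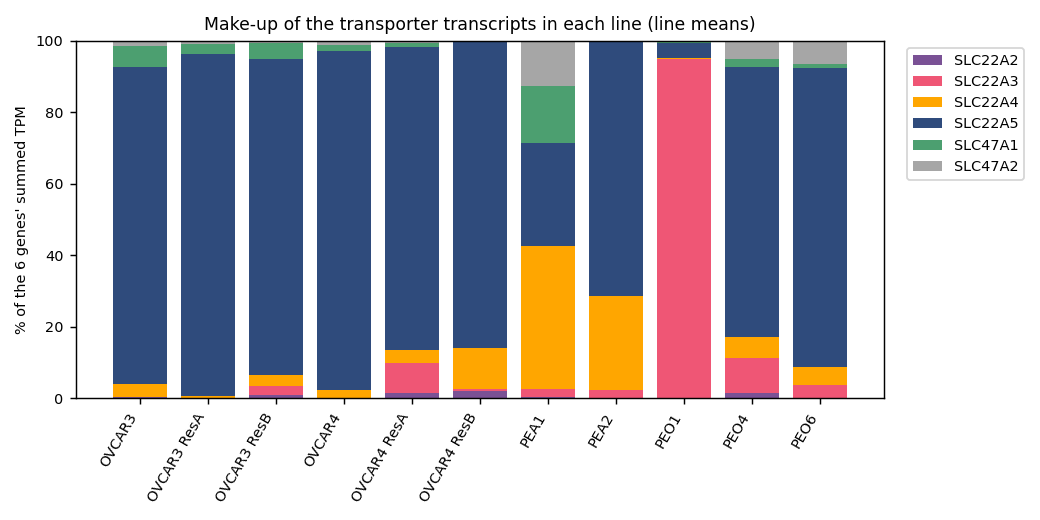
Share of each gene in the summed TPM of the 6 transporters (vertical axis, %) in the 11 lines, from line means of 3 libraries. SLC22A5 fills most of each bar except in PEO1, where SLC22A3 makes up 94.7%, and PEA1, where SLC22A4 makes up 39.8%.

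Among the uptake carriers, SLC22A3 was abundant in PEO1 alone. The PEO1 libraries had 248, 166 and 169 TPM, which placed SLC22A3 at rank 674 of 29744 genes by mean level. PEO4 had 1.52, 1.82 and 1.14 TPM, and PEO6 had 0.0519, 0.112 and 1.19 TPM. The PEO1 values lay far above those of both resistant lines without overlap. SLC22A3 fell in PEO4, with a log2 fold change of -7.04 ± 0.21 (SE) and an adjusted p of 2.35e-245, or 131-fold lower. In PEO6 it also fell, with a log2 fold change of -9.96 ± 1.10 and an adjusted p of 3.47e-18, and the size of that change depended on the fit, at -8.99 without the replicate block and -11.13 without replicate 3 of PEO6. The study describes SLC22A3 as taking part in cisplatin influx and says that it may not carry carboplatin. It was one of the transport genes in a panel that the study drew up partly on these samples, so the direction is not independent evidence.

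Elsewhere SLC22A3 was scarce. All 9 libraries of OVCAR3, OVCAR3 ResA and OVCAR4 were at 0 counts. OVCAR3 ResB had 4, 5 and 9 counts, OVCAR4 ResB had 5, 10 and 7, PEA1 had 12, 12 and 17, and PEA2 had 7, 29 and 11. OVCAR4 ResA had 292, 2 and 0 counts, so its mean of 2.28 TPM rested on replicate 1, the library that stood apart, and was 0.022 TPM without it. In that library SLC22A3 was at 3.67% of its mean PEO1 level in CPM, GABRA5 at 3.23%, CBLN1 at 3.43% and SOX15, on 5 counts, at 1.87%. GABRA5, CBLN1 and SOX15 were picked because their line means most resembled those of SLC22A3. Those means include this library, so the levels of these genes in it are no separate evidence. The SLC22A3 change in OVCAR4 ResA was not called (log2 2.90 ± 3.89, adjusted p = 0.71), and without replicate 1 of that line it was 1.04, with no adjusted p. With that library kept, it was called with edgeR (9.89, adjusted p = 0.0276) and in a single fit of all 33 libraries (8.78, adjusted p = 2.95e-05). In OVCAR3 ResB, where the parent was at 0, the mean was 2.17-fold the floor of 3 counts per library, and no adjusted p was defined. In OVCAR4 ResB the mean was 1.73-fold that floor, and the change had an adjusted p of 0.158. Without the replicate block the change was called in OVCAR3 ResB (adjusted p = 0.0457) and in OVCAR4 ResB (0.0292). The single fit of all 33 libraries also called it in these lines (0.04 and 0.0343).

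SLC22A2, the carrier linked with cisplatin uptake in kidney, rose in OVCAR4 ResB. OVCAR4 had 0.0211, 0 and 0 TPM, or a single count in 1 library and none in the others. OVCAR4 ResB had 0.678, 0.565 and 0.603 TPM, and OVCAR4 ResA had 0.552, 0.499 and 0.127 TPM. Every library of both resistant lines was above every parental library. The mean of OVCAR4 ResB was 5.75-fold the floor of 3 counts per library for OVCAR4 (adjusted p = 0.00334), and that of OVCAR4 ResA was 3.85-fold. In OVCAR4 ResA the change missed the threshold (adjusted p = 0.0545). It passed without the replicate block (adjusted p = 0.0136) and in a single fit of all 33 libraries (0.00829). Without replicate 1 of OVCAR4 ResA no adjusted p was given for that change. In the PEO family the direction differed: PEO1 had 0.595, 0.233 and 0.247 TPM and PEO6 had 0, 0 and 0.045 TPM, without overlap. SLC22A2 fell in PEO6 (adjusted p = 0.00696), and the mean of PEO1 was 5.43-fold the floor for PEO6. PEO4, with 0.0612, 0.244 and 0.311 TPM, overlapped PEO1 (log2 -0.74 ± 0.95, adjusted p = 0.614). In the OVCAR3 and PEA families no library exceeded 5 counts. All calls for SLC22A2 rest on libraries of 26 counts or fewer. The call in OVCAR4 ResB was lost without replicate 2 and without replicate 3, and that in PEO6 without replicate 1 and without replicate 2.

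SLC22A5 was higher in the resistant line in all 7 pairs as a direction of the fitted value, and the change was called in 3 of them. The 7 pairs share the libraries of 4 sensitive lines, so they are not independent observations. OVCAR4 had 10.5, 7.22 and 8.90 TPM, OVCAR4 ResA had 26.0, 20.6 and 23.1 TPM, and OVCAR4 ResB had 23.8, 24.9 and 27.0 TPM. Neither resistant line overlapped the parent. On normalised counts the change was 0.94 ± 0.32 in OVCAR4 ResA (adjusted p = 0.0328) and 1.03 ± 0.31 in OVCAR4 ResB (adjusted p = 0.00915), or 1.92-fold and 2.04-fold. TPM gave larger folds, since the median gene shifted by 0.45 and 0.51 on the log2(TPM + 1) scale in the same comparisons. Mitochondrial rRNA (RNR1 with RNR2) moved with these lines, at 10.65% of all counts in OVCAR4 against 4.44% and 5.98% in the resistant lines, and its part in the result was not tested. With edgeR the log2 fold changes were 0.95 and 1.03, but neither was called (adjusted p = 0.115 and 0.0577). Without the replicate block in DESeq2 both were called (adjusted p = 0.000306 and 2.09e-06). Without replicate 1 of OVCAR4 ResA the change there was 0.81, with an adjusted p of 0.00442.

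SLC22A5 also rose in PEA2, the pair with the highest fitted value on normalised counts. PEA1 had 4.06, 4.07 and 4.05 TPM and PEA2 had 11, 9.48 and 9.84 TPM. The 3 PEA1 libraries were nearly equal and all below PEA2. The change of 1.50 ± 0.27, or 2.83-fold, had an adjusted p of 2.5e-07. The carcinoma markers moved in the same comparison, and their part in the result was not tested. In the other pairs the fitted values were 0.42 ± 0.23 in OVCAR3 ResA (adjusted p = 0.122), 0.49 ± 0.39 in OVCAR3 ResB (0.644), 0.43 ± 0.21 in PEO4 (0.0958) and 0.20 ± 0.26 in PEO6 (0.564). Their 95% intervals reached 0.87, 1.27, 0.83 and 0.71, so an increase of the size seen in OVCAR4 ResB lay outside all of these except that of OVCAR3 ResB. OVCAR3 had 3.22, 4.03 and 3.77 TPM, below the 5.03, 4.98 and 5.30 TPM of OVCAR3 ResA and the 4.18, 4.85 and 6.54 TPM of OVCAR3 ResB. The PEO lines were closer, with 9.23, 8.14 and 8.50 TPM in PEO1, 11.9, 11.9 and 10.4 TPM in PEO4 and 10.5, 12.1 and 8.60 TPM in PEO6.

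SLC22A4, the ergothioneine carrier beside SLC22A5, rose in OVCAR4 ResB. OVCAR4 had 0.401, 0.0969 and 0.143 TPM, OVCAR4 ResA had 1.06, 0.852 and 1.09 TPM and OVCAR4 ResB had 3.39, 3.19 and 3.47 TPM. The 3 lines formed 3 separate levels. The change in OVCAR4 ResB was 3.52 ± 0.70 (adjusted p = 1.41e-05), an 11.4-fold increase, and that in OVCAR4 ResA, at 1.79 ± 1.01, was not called (adjusted p = 0.275), nor was it without replicate 1 of OVCAR4 ResA (2.11, adjusted p = 0.197). The call in OVCAR4 ResB was lost with limma on log2(TPM + 1) (adjusted p = 0.0627) and on log2(TPM + 0.1) (0.0507), and that in OVCAR4 ResA was gained in the single fit of all libraries (0.00334). PEA1 had the highest level, with 6.23, 5.69 and 4.82 TPM, above 3.72, 3.71 and 3.78 TPM in PEA2, but on normalised counts the difference was -0.28 ± 0.35 (adjusted p = 0.54). The PEO lines overlapped between 0.417 and 1.08 TPM, and the OVCAR3 lines had 7 counts or fewer in every library. SLC22A4 and SLC22A5 therefore differed in order, since PEA1 was first for SLC22A4 and last but one for SLC22A5.

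**Figure D2:**
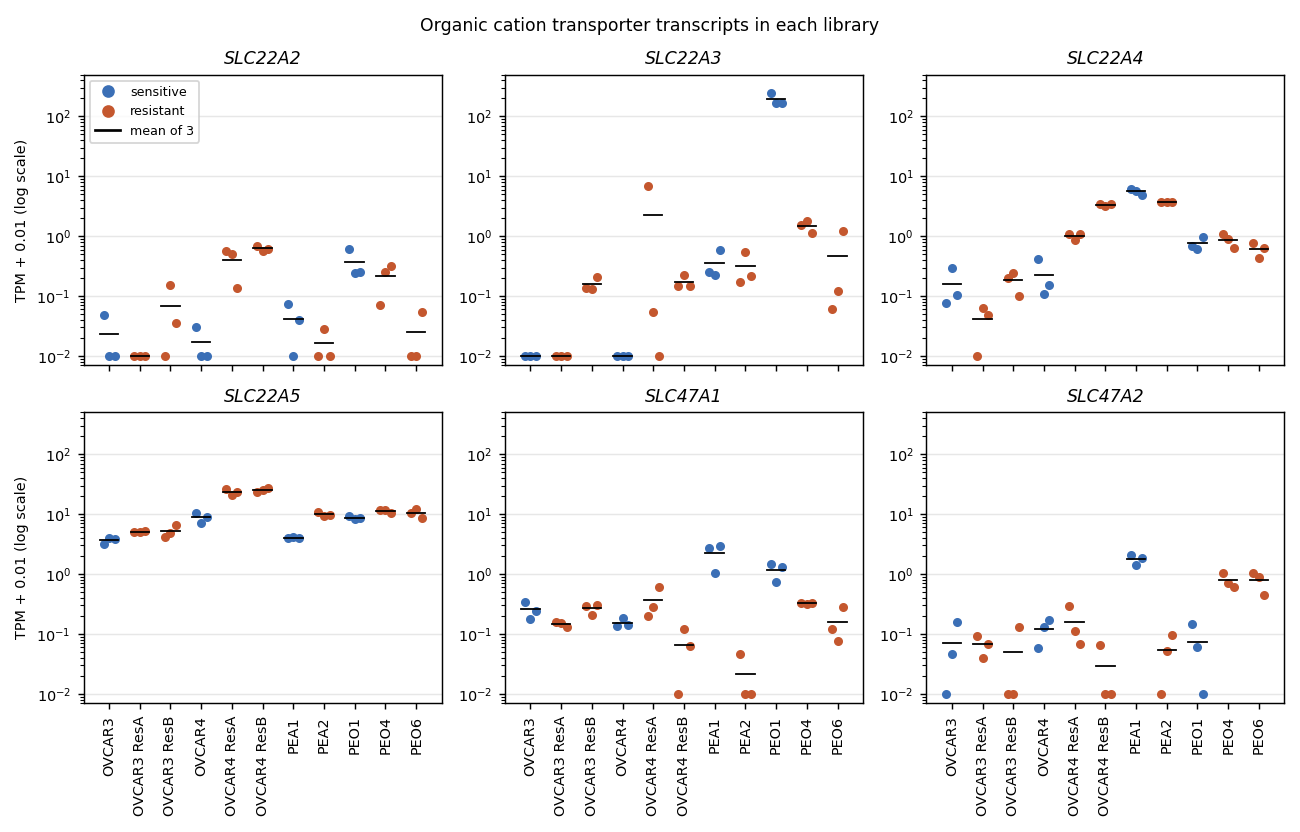
Level of each transporter (vertical axis, TPM + 0.01 on a log scale) in the 33 libraries of 11 lines, with points for libraries, bars for the mean of 3, blue for sensitive and orange for resistant lines. SLC22A3 is at 166 to 248 TPM in PEO1, and in OVCAR4 ResA its 6.79 TPM in replicate 1 stands apart from 0.0441 and 0 TPM.

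Among the exporters, SLC47A1 fell in all 3 clinical pairs. PEA1 had 2.68, 1.04 and 2.95 TPM and PEA2 had 0.0355, 0 and 0 TPM (adjusted p = 4.36e-10). The mean of PEA1 was 40.5-fold the floor of 3 counts per library for PEA2. The carcinoma markers and COL1A1 moved in this comparison too, as given above, and their part in the falls of SLC47A1 and SLC47A2 in PEA2 was not tested. PEO1 had 1.46, 0.718 and 1.32 TPM, PEO4 had 0.323, 0.301 and 0.320 TPM, and PEO6 had 0.109, 0.0672 and 0.272 TPM. No PEO4 or PEO6 library reached the lowest PEO1 library. The log2 fold change of SLC47A1 was -1.79 ± 0.51 in PEO4 (adjusted p = 0.00213) and -3.11 ± 0.64 in PEO6 (adjusted p = 9.5e-06), or 3.45-fold and 8.65-fold. The call in PEO4 was lost without replicate 1 and without replicate 2. In the cisplatin-selected pairs no change of SLC47A1 was called, and no library of those families exceeded 31 counts. The fitted value in OVCAR4 ResB was -2.55 ± 1.49 (adjusted p = 0.252), on 0, 6 and 3 counts against 8, 8 and 7 in OVCAR4.

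SLC47A2, the kidney-type exporter, moved in opposite directions in the clinical families. It fell in PEA2, from 2.05, 1.43 and 1.82 TPM in PEA1 to 0, 0.0424 and 0.0877 TPM (adjusted p = 1.05e-07). Its mean in PEA1 was 19.7-fold the floor of 3 counts per library for PEA2. It rose in both PEO lines: PEO1 had 0.136, 0.0505 and 0 TPM, PEO4 had 1.03, 0.711 and 0.603 TPM, and PEO6 had 1.04, 0.877 and 0.443 TPM. No library of PEO4 or PEO6 overlapped PEO1. Set against the floor of 3 counts for PEO1, the mean was 9.1-fold in PEO4 (adjusted p = 0.000203) and 9.08-fold in PEO6 (adjusted p = 0.000485). In the PEO family SLC47A1 and SLC47A2 thus changed in opposite senses, while in PEA2 both fell. All OVCAR3 and OVCAR4 family libraries had 12 counts or fewer of SLC47A2.

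Over the 7 pairs, 14 of the 34 member-by-pair combinations with an adjusted p were called, 7 higher and 7 lower, and the other 8 had no adjusted p because counts were too low. That is 41.2%, against 29.8% of combinations over all genes, of which 15.0% were called higher and 14.8% lower. The median fitted change was 0.36 over the members and 0 over all genes. No member was called in OVCAR3 ResA, where 44.9% of genes were, or in OVCAR3 ResB, where 7.67% were. With DESeq2, no member in these pairs except SLC22A3 in OVCAR3 ResB had an unadjusted p under 0.05, and SLC22A5 was called in OVCAR3 ResA with edgeR and with limma on genes of at least 1 TPM. A single fit of all 33 libraries called SLC22A3 and SLC22A5 in OVCAR3 ResB. OVCAR4 ResA had 1 member called (11.9% of all genes) and OVCAR4 ResB had 3 (17.9%), all 4 of them higher. PEA2 had 3 members called (47.0% of all genes), PEO4 had 3 (33.3%) and PEO6 had 4 (41.4%), and of these 10 calls 3 were higher and 7 lower. The difference in direction between cisplatin-selected and clinical pairs was not tested. The TPM values of the lines did not overlap in 26 of 41 member-by-pair combinations with counts, or 63.4%, against 34.9% over all genes.

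**Figure D3:**
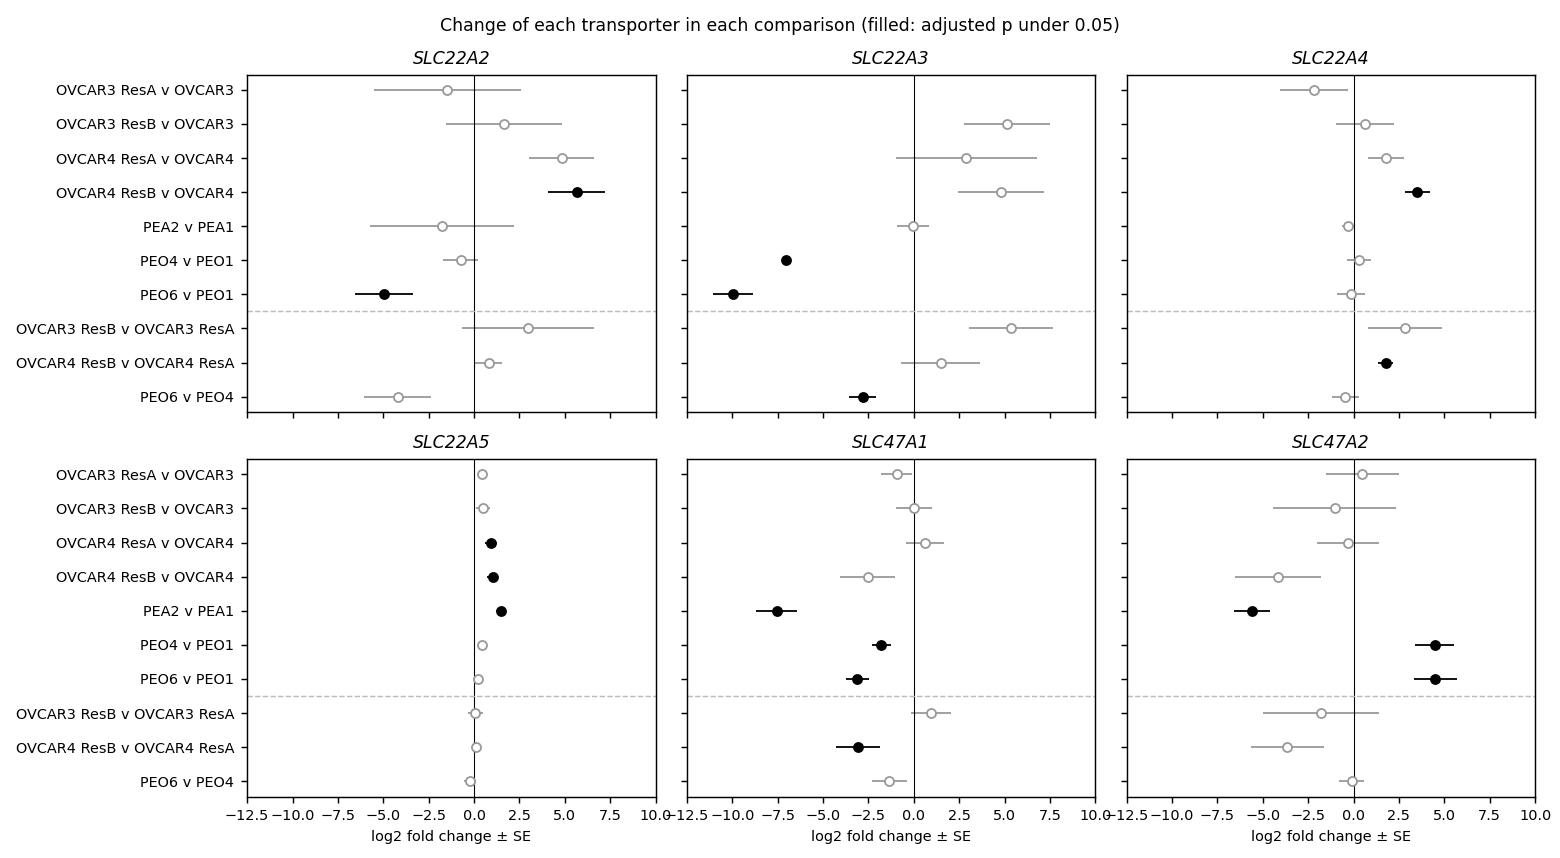
Log2 fold change ± SE (horizontal axis) of each transporter in the 10 comparisons (rows), with filled points for an adjusted p under 0.05. Values against a line at 3 counts or fewer depend on the fit and are no bound. SLC22A5 lies right of 0 in all 7 pairs above the dashed line, and SLC22A3 lies at -7.04 and -9.96 in PEO4 and PEO6. The 7 pairs share 4 sensitive lines.

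The resistant lines of a family were also set against each other, a comparison without the shared sensitive parent. OVCAR4 ResB had more SLC22A4 than OVCAR4 ResA, by 1.77 ± 0.42 on the log2 scale (adjusted p = 0.00016), or 3.40-fold. The call was lost without replicate 2 (adjusted p = 0.0936) and without replicate 3 (0.0546), and without replicate 1 of OVCAR4 ResA alone the change was 1.71 (adjusted p = 0.0279). It had less SLC47A1, with 0, 0.111 and 0.0524 TPM against 0.190, 0.277 and 0.595 TPM and a change of -3.07 ± 1.19 (adjusted p = 0.0335). The replicate numbers paired these libraries, and without the replicate block the SLC47A1 call was lost. It was also lost with limma on log2(TPM + 1) (adjusted p = 0.0906), without replicate 1 (0.132) and without replicate 2 (0.159). Without replicate 3 no adjusted p was given, and without replicate 1 of OVCAR4 ResA alone the change was -2.49 (adjusted p = 0.264). In this comparison 32.8% of all genes were called. PEO6 had less SLC22A3 than PEO4, with a change of -2.82 ± 0.76 (adjusted p = 0.00235), with 18.2% of all genes called. The PEO6 library with 51 counts, against 3 and 6 in the other PEO6 libraries, overlapped PEO4, and without it the difference was -4.04 (adjusted p = 5.53e-05). The SLC22A3 call was lost in the single fit of all 33 libraries (adjusted p = 0.343), with limma on log2(TPM + 1) (0.249) and log2(TPM + 0.1) (0.215), without replicate 1 (0.259) and without replicate 2 (0.286). No member was called between OVCAR3 ResB and OVCAR3 ResA, where 13.5% of genes were. SLC22A5 did not differ beyond its error in any of these comparisons, with 95% intervals from -0.71 to 0.85 in the OVCAR3 lines, from -0.15 to 0.34 in the OVCAR4 lines and from -0.85 to 0.39 in the PEO lines.

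With the line as the unit, 11 lines and family as a covariate, no member was called in DESeq2 or edgeR. DESeq2 called 0.286% of all genes and edgeR called 0 of 24644, so the edgeR result is not particular to the members. SLC22A5 was nearest, higher in resistant lines by 0.76 ± 0.25 with an unadjusted p of 0.00219 and an adjusted p of 0.259. SLC47A1 had a fitted value of -1.89 ± 0.89 (unadjusted p = 0.0342, adjusted p = 0.746). These were the 2 members with an unadjusted p under 0.05 in DESeq2, and SLC22A5 was the 1 such member in edgeR. Over all genes, 1424 had such a p in DESeq2, where 23782 had an adjusted p, and 925 of 24644 in edgeR. The change from sensitive to resistant differed between the 7 pairs for all 6 members by a likelihood ratio test over the 33 libraries, with adjusted p-values from 7.02e-21 for SLC47A1 to 4.22e-05 for SLC22A2, in a test that called 70.2% of all genes.

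Genes beside each pair of transporters did not follow a common course. On chromosome 6, MAP3K4, a stress kinase gene, fell in PEO4 and PEO6, where SLC22A3 fell, with log2 fold changes of -0.49 ± 0.20 and -0.82 ± 0.23. It also fell in PEA2 (-0.67 ± 0.26) and rose in OVCAR3 ResA (0.52 ± 0.19). IGF2R, which encodes the cation-independent mannose-6-phosphate receptor, rose in OVCAR4 ResB by 1.21 ± 0.41 (adjusted p = 0.0244). Of 18 neighbour-by-pair combinations there with an adjusted p, 2 were called higher and 4 lower. That is 33.3%, against 29.8% over all genes.

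On chromosome 5, PDLIM4, a PDZ-LIM gene next to SLC22A4, was called lower in the 3 pairs in which SLC22A5 was called higher. Its change was -5.34 ± 1.16 in OVCAR4 ResA, -5.41 ± 1.05 in OVCAR4 ResB and -1.15 ± 0.25 in PEA2. In the other pairs PDLIM4 was not called. RAD50, a subunit of the MRE11 complex in double-strand break repair, rose in PEA2 (0.90 ± 0.25), PEO4 (0.66 ± 0.16) and PEO6 (1.21 ± 0.22). IRF1, an interferon-responsive transcription factor, rose in OVCAR3 ResA, PEO4 and PEO6, the last by 1.08 ± 0.23. P4HA2, a collagen prolyl hydroxylase subunit, rose in PEO4 and fell in PEO6. Of 37 combinations with an adjusted p in this region, 9 were called higher and 4 lower, or 35.1%, against 29.8% over all genes.

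**Figure D4:**
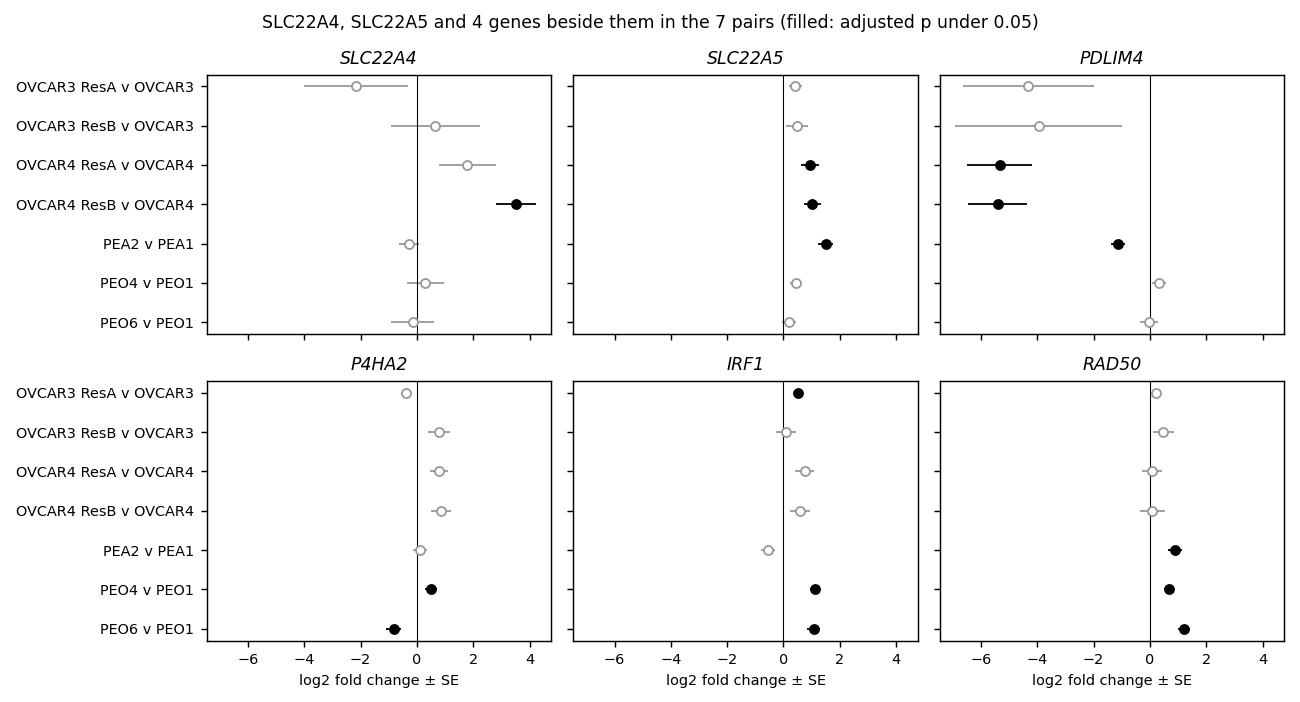
Log2 fold change ± SE (horizontal axis) of SLC22A4, SLC22A5 and 4 genes beside them in the 7 pairs (rows), with filled points for an adjusted p under 0.05. SLC22A5 lies right of 0 in all 7 pairs. PDLIM4 was called lower in the OVCAR4 and PEA2 pairs. Uncalled, it lies at -4.32 in OVCAR3 ResA, -3.95 in OVCAR3 ResB, -0.03 in PEO6 and 0.32 in PEO4.

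On chromosome 17, ALDH3A2, the fatty aldehyde dehydrogenase between SLC47A1 and SLC47A2, rose with SLC47A2 in PEO4 (0.99 ± 0.17) and PEO6 (0.92 ± 0.22) and fell in OVCAR4 ResB. ULK2, an autophagy kinase gene, fell in OVCAR3 ResA (-1.93 ± 0.23) and rose in PEA2 (1.63 ± 0.27). B9D1, a ciliary transition zone gene, rose in PEA2 (1.63 ± 0.27), where both exporters fell, and in PEO6, and fell in OVCAR4 ResA. MAPK7, the ERK5 kinase gene, fell in PEA2 (-0.94 ± 0.30) and OVCAR3 ResA and rose in OVCAR4 ResB (1.07 ± 0.37). There 12 of 53 combinations with an adjusted p were called higher and 5 lower, or 32.1% in all, against 29.8% over all genes.

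Genes of carnitine use, which SLC22A5 supplies, moved in both directions: of 74 combinations over 11 genes, 15 were called higher and 12 lower. That is 36.5%, against 29.8% over all genes. BBOX1, the last enzyme of carnitine synthesis, fell in OVCAR3 ResA from 40.2 to 7.99 TPM and in OVCAR3 ResB to 6.67 TPM, was lower in OVCAR4 ResB and rose in PEO6 from 0.928 to 19.7 TPM (4.45 ± 0.36). CPT1A, the rate-limiting carnitine palmitoyltransferase, rose in PEA2 (2.09 ± 0.26) and fell in OVCAR4 ResB (-1.23 ± 0.30) and OVCAR3 ResA. SLC25A29, a mitochondrial carrier of the carnitine carrier family, rose in PEO4 (1.87 ± 0.25) and PEO6 (3.05 ± 0.26) and fell in OVCAR3 ResA and PEA2. ALDH9A1, an aldehyde dehydrogenase of carnitine synthesis, rose in OVCAR3 ResA, PEO4 and PEO6 and fell in PEA2.

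Of 11 other carriers of cations, monoamines, thiamine and choline, 6 stayed below 1 TPM in every line. Here 4 of 41 combinations were called higher and 4 lower, or 19.5% in all, against 29.8% over all genes. SLC44A2, a choline transporter-like gene, rose in PEA2 (1.22 ± 0.23) and fell in OVCAR4 ResB (-0.86 ± 0.29). SLC19A2, the thiamine carrier, rose in OVCAR3 ResA (0.47 ± 0.15) and PEA2, and SLC44A1 fell in PEO6. SLC29A4, a plasma membrane monoamine transporter, fell in PEA2 (-1.41 ± 0.42). Of the other SLC22 genes, 12 of 18 stayed below 1 TPM in every line, and of 44 combinations 15 were called higher and 6 lower. Their share called was 47.7%, against the same 29.8%. SLC22A23, an orphan member of the family, rose in OVCAR3 ResA, OVCAR4 ResA (1.89 ± 0.41), OVCAR4 ResB (1.32 ± 0.41) and PEA2 (3.41 ± 0.66). SLC22A17, known as a lipocalin receptor, rose in OVCAR3 ResA, OVCAR4 ResB, PEO4 and PEO6 and fell in PEA2 by 5.35 ± 0.58. SLC22A18 rose in PEA2, PEO4 and PEO6 and fell in OVCAR3 ResA and OVCAR3 ResB, and SLC22A20 rose in PEO4 and PEO6 and fell in OVCAR3 ResA.

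Among 13 regulators and PDZ scaffolds linked with these carriers, 18 of 71 combinations were called higher and 13 lower, or 43.7% in all, against 29.8% over all genes. RUNX1, a factor for which a binding site in SLC22A4 has been described, rose in 5 of the 7 pairs, by 1.59 ± 0.33 in OVCAR4 ResB, and was not called in OVCAR3 ResB (0.60 ± 0.33) or PEO6 (0.48 ± 0.22). PPARA, the fatty acid sensor that controls the rodent SLC22A5 gene in liver, rose in OVCAR4 ResB (1.23 ± 0.37), PEA2 (1.52 ± 0.35) and OVCAR3 ResA and fell in PEO4 (-2.22 ± 0.22) and PEO6 (-1.28 ± 0.29). PPARG, the related adipocyte regulator, fell from 19.9 TPM in PEO1 to 0.760 TPM in PEO4 and 0.634 TPM in PEO6, fell in PEA2 and rose in OVCAR3 ResA. SLC9A3R1, the NHERF1 scaffold, rose in OVCAR4 ResA and in PEO4, there from 116 to 308 TPM, and fell in OVCAR3 ResA and PEA2.

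Genes whose line means of log2(TPM + 1) most resembled each of 5 members over the 11 lines, without SLC22A2, which reached 1 TPM in no line, were picked from 13182 genes that reached 5 TPM in a line. They are a description, since lines of a family share their origin. For SLC22A3 they were GABRA5, CBLN1 and SOX15, with Pearson r of 0.995, 0.987 and 0.986, all highest in PEO1. The mean of SLC22A3 was 194 TPM in PEO1 and 2.28 TPM or less in every other line, so these r rest mainly on PEO1. The line next to it, OVCAR4 ResA, owed its mean to replicate 1, the library that stood apart. For SLC22A5 the nearest genes were GMPR, PDXDC1 and LNPEP (0.969, 0.962 and 0.961), and for SLC22A4 RPS6KA5, RAD51D and DHX33 (0.963, 0.958 and 0.958). FAM196B, GNG4 and ITGA4 were nearest to SLC47A1 (0.961, 0.959 and 0.956), and LOC283683, STK32B and MDGA2 to SLC47A2 (0.967, 0.960 and 0.943), all highest in PEA1. Between adjacent members r was 0.623 for SLC47A1 and SLC47A2, 0.277 for SLC22A4 and SLC22A5 and 0.403 for SLC22A2 and SLC22A3.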

How the data were processed

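Messenger RNA was sequenced in 33 libraries, 3 for each of 11 cell lines. Per the study's methods, the authors ran the nf-core RNA-seq pipeline on GRCh38 and summarised reads per gene with salmon, while the submitters' processing notes list DRAGEN and GRCh38. The deposited estimated counts, of which 88.4% were whole numbers, were rounded. The deposited TPM values, scaled by the authors per transcript length and library, were used for levels between genes and carry no depth. Depth ran from 18058985 to 43394009 counts, and calls for genes with few counts are imprecise.

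Lines were grouped by the cell line label, and resistance came from the study's text. Each comparison used DESeq2 1.42.0 in R 4.3.3 on its 6 libraries, with the replicate number as a block, as in the study's methods, and a Benjamini-Hochberg adjusted p under 0.05 over all genes. Where DESeq2 gave no adjusted p, none was set. Line-level counts summed over replicates were tested with family as covariate, and differences between pairs by a likelihood ratio test. Alternatives were edgeR 4.0.16, limma 3.58.1 on log2(TPM + 1) or log2(TPM + 0.1), another scaling, a filter of 10 counts in 3 libraries, no block and leaving out libraries; leaving out replicate 1 of OVCAR4 ResA or replicate 3 of PEO6 was chosen after seeing the data. The tests were checked on simulated counts.

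For a line with 3 counts or fewer in every library, the fold sets the other line's mean against a floor of 3 counts per library. The error of that mean is not covered, so such a fold is not a lower bound. All correlations of same-numbered deviations were above 0.1, and the numbers thus paired libraries, in 2 comparisons: OVCAR3 ResA against OVCAR3 (0.733, 0.292 and 0.528) and OVCAR4 ResB against OVCAR4 ResA (0.639, 0.490 and 0.511). The members and gene lists were chosen with earlier results of these data known. A gene of these lists is not reported here. Up to 4 genes per list were named, those called in most pairs, then by mean count, with up to 2 neighbours per locus called beside a member and the 3 genes most like each of 5 members, SLC22A2 being below 1 TPM in every line. Coordinates and promoter windows are from RefSeq GRCh38.p14; the 6 members all matched by symbol, and promoter windows matched 4 members, SLC22A2, SLC22A4, SLC22A5 and SLC47A2, of which the first 3 are printed.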

Additional observations from a re-analysis of the deposited data

Results flagged for a closer look

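The change from sensitive to resistant differed between the 7 pairs for each transporter, by a likelihood ratio test over 33 libraries. The adjusted p was 4.22e-05 for SLC22A2, which rose in OVCAR4 ResB and fell in PEO6. It was 4.18e-11 for SLC22A3, which fell in PEO4 and PEO6, and 3.91e-15 for SLC22A4, which rose in OVCAR4 ResB. For SLC22A5, with fitted values above 0 in all 7 pairs but of unequal size, it was 4.72e-06. It was 7.02e-21 for SLC47A1, which fell in the 3 clinical pairs, and 9.37e-09 for SLC47A2, which fell in PEA2 and rose in PEO4 and PEO6. The same test called 70.2% of all genes. Without replicate 2 the adjusted p of SLC22A2 was 0.0555.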

How the results depend on the processing

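The 14 member calls over the 7 pairs were 18 without the replicate block, 15 with edgeR, 14 with TMM size factors, 14 with the filter on low counts and 11 with limma on log2(TPM + 0.1). They were 23 with all 33 libraries in 1 fit, 9 with limma on log2(TPM + 1) and 6 with limma on genes of at least 1 TPM, and 9 to 12 when a replicate number was left out. The 3 calls between resistant lines were 4 without the block, 7 with all libraries in 1 fit, 1 with limma on log2(TPM + 1), 1 with limma on genes of at least 1 TPM and 0 to 1 when a replicate number was left out. In the single fit SLC22A3 was lower in OVCAR4 ResB than in OVCAR4 ResA (-3.94, adjusted p = 0.0435) where the separate fit gave 1.48, and replicate 1 of OVCAR4 ResA held 292 of its counts. Leaving out that library or replicate 3 of PEO6 kept 14 calls over the pairs. Without that library the calls between resistant lines were 2, and SLC22A3 there was 3.44, with no adjusted p. No line-level call appeared under any alternative run, and 5 to 6 members differed between pairs. Of 608 alternative values of single changes, 549 kept their side of the threshold, 35 lost a call, 23 gained one and 1 reversed; 36 of the 549 changed sign while called under neither. Both SLC22A5 calls in OVCAR4 lines were lost with edgeR, with limma, without replicate 2 and without replicate 3, while the log2 fold change stayed between 0.81 and 1.51. The replicate block was in every setting that lost these calls, but also in settings that kept both, such as TMM size factors and the single fit. Replicate numbers did not pair these libraries, and the part of the block in the losses was not tested. Both calls were kept in the other settings, among them no block (adjusted p = 0.000306 in OVCAR4 ResA and 2.09e-06 in OVCAR4 ResB). They were also kept in the single fit, which had the block (4.62e-08 and 2.81e-09). Of 330 alternative levels, 19 moved by more than 1 SD. Counts of at most 26 limit SLC22A2, and those of 40 or fewer limit SLC47A2 outside PEA1.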
